A study of Mus musculus with 48 samples.

Results

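The lungs of 2 inbred mouse strains, A/J and C57BL/6J, were compared at the first of 2 sampling times. The comparison rests on 6 of the 48 arrays of the series, 3 from A/J lung and 3 from C57BL/6J lung, chosen by the tissue, strain and time in the sample titles. The animals were males aged 3 months and littermates, the replicates are described as biological, and the labels name no treatment or transgene for either strain. The other arrays cover lung at time 2 and liver, heart and spleen at both times, with 3 arrays in each of 16 groups. What separates time 1 from time 2 could not be learned from the labels.

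The lung brings inhaled air against blood across a thin epithelium, and it holds large resident populations of macrophages, lymphocytes and endothelial cells beside its epithelial types. A/J and C57BL/6J carry different haplotypes of the major histocompatibility complex (MHC) and different alleles at many immune loci, and A/J is widely used as a strain prone to lung tumours and airway hyperresponsiveness. A strain comparison of whole lung can therefore hold inherited expression differences together with differences in cell make-up, and its signals need not reflect these alone. Fewer cells of a type and less RNA per cell cannot be told apart in RNA of whole tissue.

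Values are the log2 signals of 12422 probe sets, each the summary of a group of oligonucleotides made for a transcript, and a difference of 1 is a 2-fold change. Whether these oligonucleotides match A/J and C57BL/6J transcripts equally well was not tested. The tissue label was borne out by its markers. Sftpc, the surfactant protein of alveolar type 2 cells, lay between 14.18 and 14.33 in the 6 lung arrays and reached 11.20 at most in heart, liver and spleen at time 1. Array medians lay between 8.93 and 8.97, and the highest values of the arrays, 14.32 to 14.38, were shared by 3 to 14 probe sets, so a gene at that level may differ by more than it shows. The 3' minus 5' signal of Gapdh, a sign of RNA integrity, was 0.66, 0.93 and 0.91 in A/J and 1.08, 0.64 and 0.98 in C57BL/6J, so the strains overlapped. The p-values measure the spread between these animals only, and strain cannot be told apart from litter.

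At time 1, 359 probe sets (2.89% of those tested) passed limma's moderated test at an adjusted p below 0.05. Of these, 153 had the higher level in A/J (1.23%) and 206 in C57BL/6J (1.66%). Differences of 2-fold or more made up 27 of the former and 26 of the latter, and the median absolute difference was 0.53 and 0.51. For all 359 the 3 values of one strain lay above the 3 of the other, which was the case for 20.4% of all probe sets. The median difference over all probe sets was 0.0089, close to 0. The count moved with single animals: it was 167, 181 and 180 without A/J replicate 1, 2 or 3, and 226 without C57BL/6J replicate 3.

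Transcripts of hepatocytes stood out in these arrays, least in C57BL/6J replicate 1, and are kept apart here. Alb, serum albumin, was 13.39, 12.81 and 13.02 in A/J and 10.05, 12.06 and 12.46 in C57BL/6J, against 14.31 to 14.36 in liver at time 1 and 8.27 to 9.73 in lung at time 2. C57BL/6J replicate 1 was the lowest array by far, and every A/J array lay above every C57BL/6J array, with a difference of 1.55 (SE 0.52) that did not pass the test (adjusted p = 0.195). The mean over 35 hepatocyte genes ran the same way within strains, at 9.54, 9.13 and 9.27 in A/J and 8.33, 9.02 and 9.24 in C57BL/6J, and the groups overlapped. Liver and lung at time 1 were scanned in 1 run, by the array names in the labels. In lung at time 2 the list means were 8.14 in A/J and 8.28 in C57BL/6J. C57BL/6J replicate 2 of time 2 reached 8.37, so the list did not stand out in C57BL/6J replicate 1 of time 1 (8.33).

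Of 213 liver-enriched probe sets, defined without the time 1 lung arrays, 8 were called, 7 of them higher in A/J. The share of 3.76% stood beside 2.87% for the other 12209 probe sets, and 177 of the 213 had the A/J mean above. Cyp4a10, a fatty acid hydroxylase, was 8.84, 7.99 and 8.27 in A/J and 6.51, 7.03 and 7.46 in C57BL/6J, a difference of 1.37 (SE 0.26, adjusted p = 0.0268). Fabp1, the fatty acid binding protein of liver, was 10.27, 10.07 and 10.39 against 8.60, 8.85 and 9.75. Its difference was 1.18 (adjusted p = 0.045), and another probe set of the gene gave -0.07. Gjb2, a connexin (0.63), Sephs2, a selenophosphate synthetase (0.59), and Elovl2, which lengthens fatty acids (0.44), were also higher in A/J, whereas Ang, an angiogenic ribonuclease, was lower (-0.71). The count of 8 fell to 3 without any 1 of the A/J arrays and to 5 without C57BL/6J replicate 2. With the hepatocyte mean as a covariate 218 probe sets were called over all genes, 177 of them among the 359 and in the same direction.

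Markers of 2 other tissues also varied between arrays. Krt4, a keratin of squamous epithelium, was 13.53, 10.80 and 12.63 in A/J and 10.57, 10.83 and 10.86 in C57BL/6J, so A/J replicates 1 and 3 stood above the rest. Sprr3, of the cornified envelope, was high in the same arrays, at 10.41 and 9.78 against 8.53 to 8.74. Acta1, skeletal muscle actin, was 10.76, 11.89 and 10.03 in A/J and 8.10, 11.50 and 8.17 in C57BL/6J. None of these 3 genes passed the test. None of the 14 measured basal and squamous genes and none of the 19 skeletal muscle genes was called by limma, with 4 and 2 at an unadjusted p below 0.05. Without both A/J arrays high in Krt4 43 probe sets were called, and 139 without both arrays high in Acta1. The first of these fits leaves A/J with 1 array, which is assumed to vary like the C57BL/6J arrays, and the second leaves 2 arrays a strain.

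**Figure D1:**
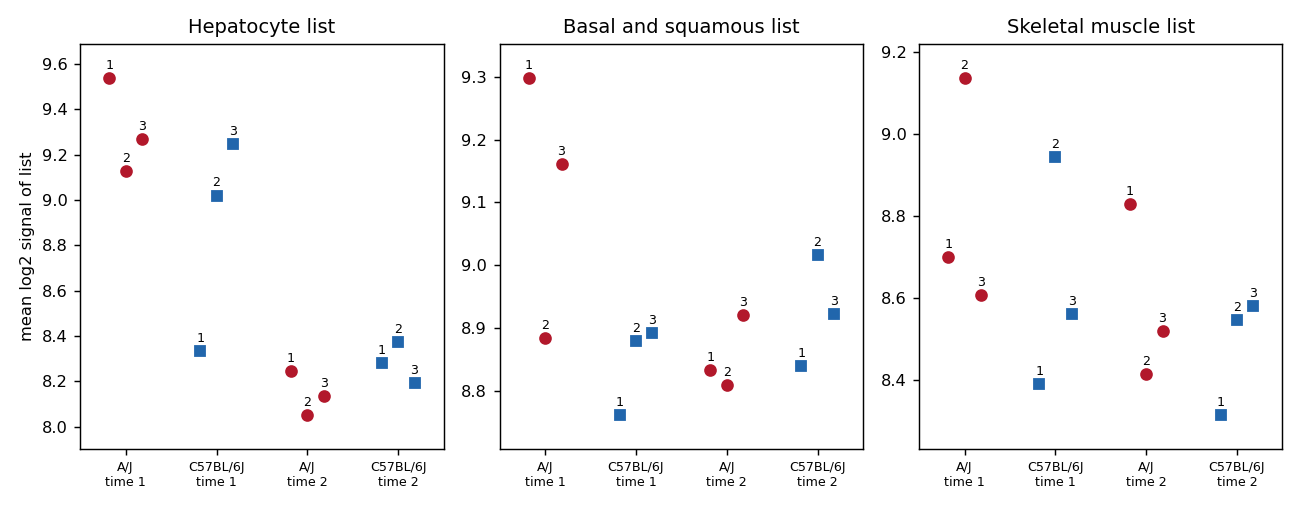
Mean log2 signal of the hepatocyte, the basal and squamous and the skeletal muscle lists (vertical axis) in each lung array, by strain and time, with the replicate number above each point. The hepatocyte mean of the time 1 arrays reaches 9.54 in A/J replicate 1 and is 8.33 in C57BL/6J replicate 1. The squamous mean is highest in A/J replicates 1 and 3 and the muscle mean in replicate 2 of each strain.

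The largest difference in the A/J direction was that of Ifi204, an interferon-inducible member of the p200 family that senses DNA. Its values were 11.22, 10.88 and 10.72 in A/J and 8.12, 7.96 and 8.33 in C57BL/6J. The strains were far apart, with a 6.96-fold difference (2.80 log2 units, SE 0.13, adjusted p = 1.94e-05). Of its other probe sets, one gave 0.60 and was called and the other gave 0.07. Baiap2l1, an adaptor that shapes actin-rich membranes, was 11.34, 11.17 and 11.12 against 9.36, 9.41 and 9.31 (3.61-fold, adjusted p = 1.51e-05). Glo1, glyoxalase 1, which clears methylglyoxal and is known to be duplicated in A/J, was 11.981, 12.001 and 11.780 against 10.38, 10.19 and 10.37, and its 2 probe sets gave 1.61 and 1.54. Gnb1, a G protein beta subunit, gave 1.65 and 1.47 by 2 probe sets that were called and 0.65 by the third (adjusted p = 0.0535).

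Scel, sciellin of the cornified envelope, was 9.15, 9.14 and 8.98 in A/J and 7.92, 7.03 and 7.19 in C57BL/6J, a 3.27-fold difference. Unlike Krt4 it was level over the A/J arrays. Lpl, lipoprotein lipase (1.22), Cavin1, a coat protein of caveolae (1.21), and Mtm1, a phosphoinositide phosphatase (1.17), were higher in A/J by 1 probe set each. The other probe sets of these 3 genes gave -0.21, -0.39 and 0.26 and were not called, so each difference was read by 1 probe set of the gene only. H2-D1, a classical MHC class I gene, showed the same split, with 1.42 by one probe set and -0.21 and 0.01 by the others. Erdr1 (1.24, adjusted p = 0.0351) rested on C57BL/6J replicates 1 and 2, at 10.28 and 10.16 beside 11.28 in replicate 3. It lost its call without A/J replicate 1, 2 or 3 and without C57BL/6J replicate 1 or 2 (adjusted p 0.126, 0.108, 0.111, 0.0695 and 0.0875).

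In the C57BL/6J direction the largest difference was that of Gas5, a non-coding RNA whose introns carry small nucleolar RNAs and which accumulates when growth is arrested. It was 8.51, 8.19 and 7.87 in A/J and 11.74, 11.09 and 11.11 in C57BL/6J, an 8.70-fold difference (adjusted p = 9.41e-05), whereas its other probe sets gave 0.01 and -0.16. Snhg6, another small nucleolar RNA host, was 8.55, 8.50 and 8.59 against 9.95, 9.84 and 9.95 (-1.37), and its other probe set gave -0.04. Ctsc, cathepsin C, which activates granzymes and neutrophil proteases, was 7.09, 7.10 and 7.21 against 9.43, 9.16 and 9.09 (-2.09). Its other probe sets disagreed, at -0.72 and 0.54, and both were called, so the direction for the gene as a whole is not settled. Spg21, an endosomal adaptor (-1.44), and Clip4, a microtubule-binding protein (-1.13), were lower in A/J as well. Clip4 lost its call without A/J replicate 1 or 3 or C57BL/6J replicate 3 (adjusted p 0.0562, 0.0531 and 0.0528). Prdx2, a peroxiredoxin, gave -1.20 by one probe set, while 2 others gave 0.08 and -0.04.

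Cxcl14, an epithelial chemokine, was 7.77, 7.78 and 7.78 in A/J and 9.66, 9.04 and 9.49 in C57BL/6J (3.08-fold). Chil3, a chitinase-like protein made by alveolar macrophages, was 11.79, 10.97 and 11.23 against 12.86, 13.20 and 12.71 (3.02-fold). Mpeg1, perforin-2 of macrophages, was 11.06, 10.84 and 11.01 against 12.16, 12.08 and 11.96 (2.14-fold), with 0.03 by another probe set. The strains overlapped in none of these, as in every called probe set. Nrgn, neurogranin, was also lower in A/J (-1.24), with A/J replicate 3 at 9.65 nearest to C57BL/6J. That call was lost without A/J replicate 1 or 2 and without C57BL/6J replicate 2 or 3 (adjusted p 0.0817, 0.0555, 0.0665 and 0.0557). Sox11, a developmental transcription factor, was 8.05, 8.10 and 8.07 against 9.63, 9.23 and 9.01 (-1.21), and its other probe set gave -0.26. Gsto1, an omega-class glutathione transferase, was 10.75, 10.66 and 10.91 against 11.83, 11.73 and 12.12 (-1.12).

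**Figure D2:**
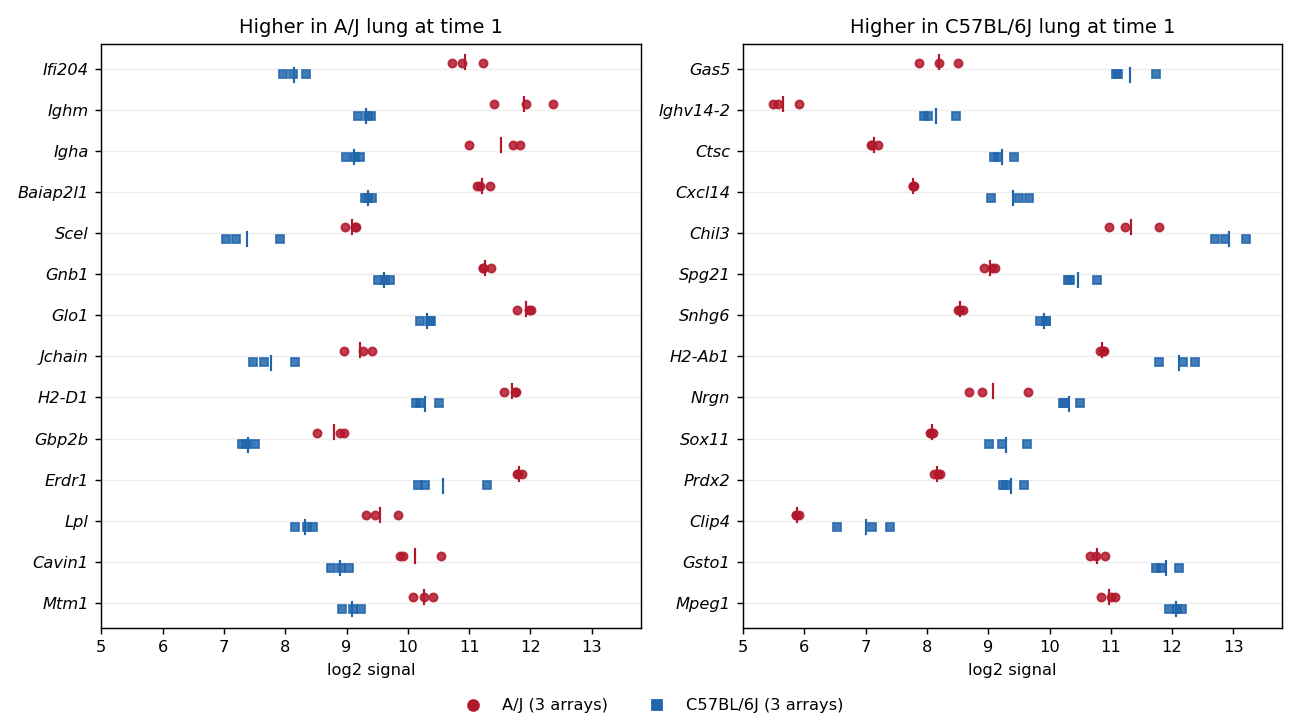
Log2 signal (horizontal axis) of the 14 genes per direction with the largest called difference outside the liver-enriched set, in each of the 3 A/J arrays (circles) and 3 C57BL/6J arrays (squares) of lung at time 1. Vertical ticks are group means. The strains overlap in no gene because that was a condition of choice, and Ifi204 and Gas5 are the farthest apart.

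Of the 88 genes named by the rule that were called at time 1, 53 kept their call in each of the 6 fits that left out 1 array. In every alternative that included the probe set 25 of them kept the call, among them Ifi204, Ighm, Igha, Baiap2l1, Gnb1, Glo1, Gbp2b, Gas5, Ctsc, Cxcl14, Chil3, Snhg6, Mpeg1 and Alad. None of the 88 changed sign in any of those fits.

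Transcripts of IgM, IgA and the J chain were higher in A/J by the probe sets given here, while several other probe sets named for these chains did not pass. Immunoglobulins M and A are secreted by plasma cells as polymers joined by the J chain, and the polymeric receptor Pigr carries them across airway epithelium. Ighm, the heavy chain of IgM, was 11.93, 11.41 and 12.36 in A/J and 9.19, 9.34 and 9.40 in C57BL/6J, a 6.03-fold difference (adjusted p = 0.000334). Igha, the heavy chain of IgA, was 11.72, 11.00 and 11.82 against 8.99, 9.22 and 9.13 (5.27-fold, adjusted p = 0.000344), and Jchain was 8.96, 9.26 and 9.42 against 7.47, 7.65 and 8.17 (2.73-fold). Replicate 2 was the lowest A/J array for both heavy chains and still lay more than 1 log2 unit above the C57BL/6J arrays.

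Pigr itself was 11.45, 11.48 and 11.47 in A/J and 10.86, 11.08 and 11.16 in C57BL/6J (0.43, adjusted p = 0.0261). Its call was lost without A/J replicate 1, 2 or 3 or C57BL/6J replicate 2 (adjusted p 0.0957, 0.103, 0.101 and 0.0572). The probe sets of the heavy chains did not all move together. Of 15 others named for Ighm, 1 was called, and in the opposite direction (-1.03), and of 2 others named for Igha 1 was called (0.57). Ighv14-2, a heavy chain variable segment, was lower in A/J, at 5.91, 5.48 and 5.58 against 8.02, 7.96 and 8.47 (-2.49), with -0.05 and -0.47 by its other probe sets. Within the list of 17 B cell and plasma cell genes only Igha and Jchain passed the test (11.8%, beside 2.89% of all probe sets). The list read Ighm by its probe set of highest mean signal, which gave -0.18 with overlapping strains (adjusted p = 0.804). B cell surface genes of the list gave negative values that did not pass, such as Cd79a at -0.33 and Cd37 at -0.30, and the list median was -0.13.

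Of 14 measured MHC class II genes 5 were lower in A/J. Class II molecules present peptides to helper T cells; the H2-A and H2-E chains carry the peptide, while H2-DM and H2-O control its loading. The 5 are 35.7% of the list, beside 1.66% of all probe sets called in this direction, and 11 of the 14 had the C57BL/6J mean above. H2-Ab1, a beta chain, was 10.82, 10.87 and 10.89 in A/J and 12.37, 11.78 and 12.18 in C57BL/6J (2.38-fold, adjusted p = 0.00154). H2-Eb1, the other beta chain, was 11.81, 11.97 and 11.77 against 13.03, 12.34 and 12.80 (1.84-fold, adjusted p = 0.0187). It lost that call without A/J replicate 1, 2 or 3 or C57BL/6J replicate 3 (adjusted p 0.0817, 0.0512, 0.0797 and 0.0713). The loading factors H2-DMa (-0.66), H2-DMb1 (-0.57) and H2-Ob (-0.51) followed, and another probe set of H2-DMa gave -0.12. In the C57BL/6J arrays replicate 2 was the lowest for each of these 5 genes.

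Among class II genes that did not pass, H2-Aa gave -0.60 (adjusted p = 0.0877), Cd74, the invariant chain, -0.35, and Ciita, the master regulator of class II transcription, -0.13. The list median was -0.34 at time 1 and 0.16 at time 2. H2-Ab1 kept its call without any 1 array. The count of 5 was 1 without each of the A/J arrays, 2 without C57BL/6J replicate 3 and 7 without C57BL/6J replicate 2. It was also 1 with the hepatocyte mean as a covariate, and 0 by limma without the arrays high in Krt4 (5 at an unadjusted p below 0.05).

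The promoters of H2-Eb1 and H2-DMb1, 250 bases before to 50 after the start (RefSeq, GRCm38.p6, plus strand), are printed because both genes were lower in A/J and both hold the paired X and Y boxes known from class II genes. Capitals mark the X box, searched as TAG, any base, AAC, any base and GATG, and the Y box, searched as GATTGG, on both strands and with no overlap between them. The X box lay from -93 to -82 in H2-Eb1 and from -96 to -85 in H2-DMb1, and the Y box from -60 to -55 and from -62 to -57, with a second Y match on the other strand of H2-Eb1 from -35 to -30. Among 32851 promoters, 0.0548% held a match to the X box search, 16.1% one to the Y box search and 5 both. These are the reference sequences, not those of A/J, and a match is a description. Of the 10 class II genes of the list with a promoter among these, only these 2 matched the X box search and 8 matched the Y box search. H2-Ob and H2-DMa, which were also lower in A/J, matched the Y box search only. The X box search left only 2 positions free, so a promoter without a match may still hold an X box. H2-Ab1 had no entry.
H2-Eb1, chr17:34305617-34305916: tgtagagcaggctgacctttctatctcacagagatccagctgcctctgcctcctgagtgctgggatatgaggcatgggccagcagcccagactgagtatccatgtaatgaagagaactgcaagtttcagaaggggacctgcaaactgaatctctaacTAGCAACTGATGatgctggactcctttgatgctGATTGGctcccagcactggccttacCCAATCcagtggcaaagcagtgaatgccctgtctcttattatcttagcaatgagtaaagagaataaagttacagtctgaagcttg
H2-DMb1, chr17:34152941-34153240: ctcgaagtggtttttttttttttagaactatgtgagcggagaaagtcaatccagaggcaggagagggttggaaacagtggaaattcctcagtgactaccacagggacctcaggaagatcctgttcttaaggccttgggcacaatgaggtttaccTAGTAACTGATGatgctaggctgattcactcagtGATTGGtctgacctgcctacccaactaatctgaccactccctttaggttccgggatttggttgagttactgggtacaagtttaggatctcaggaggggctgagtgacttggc

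Genes of MHC class I presentation, by which cells display peptides from their own cytosol, followed in part. Of 18 measured genes 3 passed (16.7%, beside 2.89% of all probe sets), all higher in C57BL/6J. H2-D1 was read in the list by a probe set that gave 0.01, whereas the one described above was called higher in A/J (1.42). Tap1, of the peptide transporter, was 9.33, 9.59 and 9.30 in A/J and 10.53, 10.17 and 10.41 in C57BL/6J (1.95-fold, adjusted p = 0.00258), although another probe set gave -0.05. H2-Q4, a non-classical class I gene, gave -0.48 and Psmb9, a subunit of the immunoproteasome, -0.49 (adjusted p = 0.0493). B2m, the shared light chain, gave -0.37 and did not pass (adjusted p = 0.0503). The count was 1 without A/J replicate 1 or 3, 2 without C57BL/6J replicate 2 or 3, 1 with the hepatocyte covariate and 0 by limma without the arrays high in Krt4 (5 at an unadjusted p below 0.05).

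Interferon-responsive genes split in 2 directions. Of 34 measured, 3 passed with the higher level in A/J and 5 with the lower (23.5% in all, beside 2.89% of all probe sets), and the list median was -0.17. Those higher in A/J were Ifi204, Gbp2b, a guanylate-binding GTPase (8.52, 8.95 and 8.90 against 7.36, 7.30 and 7.50, 2.65-fold), and Ifi202b, another p200 gene (0.43). Those lower in A/J included 2 immunity-related GTPases that act on pathogen vacuoles. Irgm2 was 9.65, 9.75 and 9.67 in A/J and 10.53, 10.20 and 10.45 in C57BL/6J (1.63-fold, adjusted p = 0.00467), and Igtp was 8.35, 8.55 and 8.63 against 9.30, 8.93 and 9.46 (1.65-fold, adjusted p = 0.0246).

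Iigp1, a GTPase of the same family (-0.66), Rsad2, viperin (-0.46), and Isg15, a ubiquitin-like modifier (-0.37), completed the 5 and were named after their values were seen, outside the rule and its 88 genes. As for class II, C57BL/6J replicate 2 was the lowest array of its strain for Irgm2 and Igtp. The count of 8 was 3 without A/J replicate 1 or 2 or C57BL/6J replicate 3, 4 without A/J replicate 3 and 5 without C57BL/6J replicate 1. Ifi204, Gbp2b and Irgm2 kept their calls in each of those fits, and Igtp did not (adjusted p 0.0995, 0.0772, 0.0556 and 0.0696 without A/J replicate 1, 2 or 3 or C57BL/6J replicate 3).

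The promoters of Irgm2 and Igtp (RefSeq, GRCm38.p6, plus strand) are printed because these neighbouring genes differed between strains by nearly the same amount. Capitals mark an interferon-stimulated response element searched as GAAA, any 2 bases and GAAA, and a gamma-activated site searched as TTC, any 3 bases and GAA, on both strands, with no overlap between them. The gamma-activated site lay from -75 to -67 in Irgm2 and from -45 to -37 in Igtp, and the response element from -64 to -55 and from -34 to -25. Among all those promoters, 3.44% held the first motif, 8.3% the second and 0.454% both. Of 28 genes of the interferon list with a promoter there, 4 held both: these 2 and Ifitm3 and Eif2ak2, which were not called, while the called genes Gbp2b, Ifi202b, Rsad2 and Isg15 held 1 of them.
Irgm2, chr11:58214727-58215026: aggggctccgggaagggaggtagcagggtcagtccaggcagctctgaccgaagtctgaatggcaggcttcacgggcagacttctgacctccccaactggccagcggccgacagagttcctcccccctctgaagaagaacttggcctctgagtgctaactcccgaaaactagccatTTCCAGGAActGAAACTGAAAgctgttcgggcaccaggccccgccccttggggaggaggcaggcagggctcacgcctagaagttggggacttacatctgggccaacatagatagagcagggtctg
Igtp, chr11:58199306-58199605: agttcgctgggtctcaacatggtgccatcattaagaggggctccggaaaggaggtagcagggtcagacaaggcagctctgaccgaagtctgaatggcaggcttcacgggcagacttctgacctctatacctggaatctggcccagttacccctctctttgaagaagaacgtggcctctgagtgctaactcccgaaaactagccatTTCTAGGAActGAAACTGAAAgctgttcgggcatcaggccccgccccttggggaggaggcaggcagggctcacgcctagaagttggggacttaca

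Of 13 measured genes of natural killer (NK) and cytotoxic cells 5 were lower in A/J and none higher. That is 38.5%, beside 1.66% of all probe sets called in this direction, and 12 of the 13 had the C57BL/6J mean above. Ccl5, a chemokine stored by cytotoxic cells, was 9.54, 9.67 and 9.73 in A/J and 10.95, 10.59 and 10.67 in C57BL/6J (2.13-fold, adjusted p = 0.000687). Gzma, granzyme A, was 6.33, 6.33 and 6.23 against 7.07, 7.02 and 7.02 (1.67-fold, adjusted p = 0.00045). The receptors Klra3 (-0.53), Klrd1 (-0.45) and Klra7 (-0.37), which read class I molecules on other cells, were lower as well. The Klra genes are a family of near-identical copies, so their probe sets may read more than 1 of them, and another probe set of Klra7 gave -0.18. Prf1, perforin (-0.16), and Il2rb (0.00) did not pass. The mean of the list was 7.52, 7.57 and 7.59 in A/J and 7.89, 7.87 and 7.89 in C57BL/6J, with no overlap. The count of 5 was 3 without A/J replicate 1 or 2 and 0 by limma without the arrays high in Krt4 (6 at an unadjusted p below 0.05), while Ccl5, Gzma and Klra3 kept their calls without any 1 array.

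None of 20 T cell genes was called by limma (7 at an unadjusted p below 0.05), and none of 15 neutrophil genes (also 7). The neutrophil granule gene Ngp gave -0.87 (adjusted p = 0.0935) and S100a9 -0.84 (adjusted p = 0.161). Of 21 macrophage genes 2 passed, Mpeg1 and Chil3, both lower in A/J (9.52%, beside 1.66% of all probe sets called in this direction). The general markers Cd68 (0.40) and Mrc1 (0.33) did not pass and gave values of the opposite sign. Ltb, lymphotoxin beta, was 9.66, 9.60 and 9.57 in A/J and 10.31, 10.05 and 10.20 in C57BL/6J (-0.58, adjusted p = 0.00524). It was the only one of 37 interleukin and signalling genes to pass (2.7%, near the 2.89% of all probe sets).

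Of 5 measured platelet genes 3 were lower in A/J, beside 1.66% of all probe sets: Gp1bb, Gp9 and Gp5, which form part of the complex that binds von Willebrand factor. Gp1bb was 7.677, 7.578 and 8.003 in A/J and 8.30, 8.45 and 8.32 in C57BL/6J (-0.60, adjusted p = 0.021), Gp9 gave -0.45 and Gp5 -0.41, with 0.06 by another probe set of Gp5. Pf4, a platelet chemokine (0.20), and Itgb3, an integrin glycoprotein (0.04), did not pass. No platelet gene was called without A/J replicate 1 or 2 or C57BL/6J replicate 2, and 1 was without A/J replicate 3 or C57BL/6J replicate 3. Without the arrays high in Krt4 limma called none (3 at an unadjusted p below 0.05). Vwf, von Willebrand factor of the endothelium, was 12.04, 11.98 and 11.85 against 12.88, 12.69 and 12.51 (1.67-fold, adjusted p = 0.00555), and another probe set gave 0.01.

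**Figure D3:**
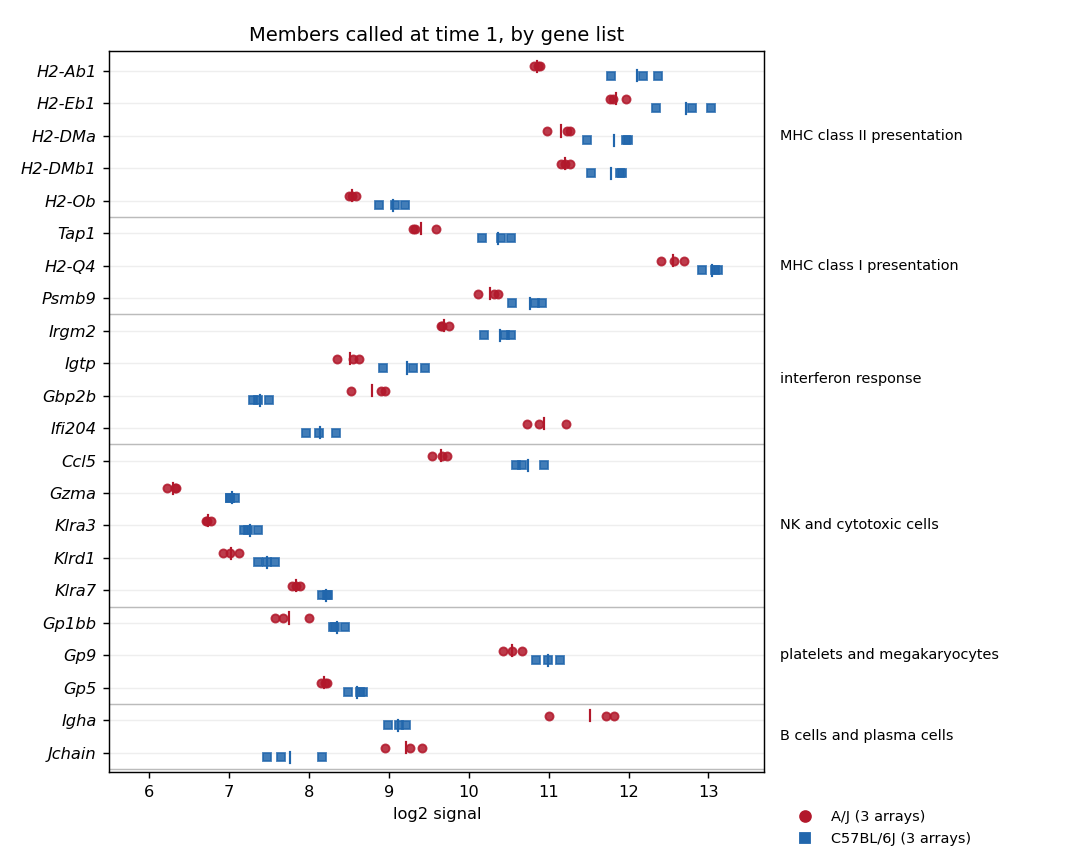
Log2 signal (horizontal axis) of called members of 6 gene lists in the 3 A/J arrays (circles) and the 3 C57BL/6J arrays (squares), with ticks at group means. The MHC, cytotoxic and platelet members lie lower in A/J, the antibody genes and Gbp2b and Ifi204 lie higher, and within C57BL/6J replicate 2 gives the lowest point of each class II gene.

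Of the lung's own epithelium, 2 of 6 alveolar type 1 genes (33.3%) and 2 of 13 airway secretory genes (15.4%) passed. The share of all probe sets was 2.89%, and in each of these lists 1 call went in each direction. None of 10 surfactant and alveolar type 2 genes was called by limma (1 at an unadjusted p below 0.05), although Sftpc and Sftpb (14.13 to 14.28) lie close to the ceiling of the arrays, where a difference cannot be read. Hopx, a marker of alveolar type 1 cells, was 12.12, 11.62 and 11.68 in A/J and 12.76, 12.78 and 12.74 in C57BL/6J (1.94-fold, adjusted p = 0.00424). The Hopx difference was -0.95 in lung, and -0.58 in liver, -1.79 in heart and -0.48 in spleen at time 1. Vegfa, which type 1 cells make for the capillaries, was higher in A/J (0.56, adjusted p = 0.0354) and lost its call without A/J replicate 1, 2 or 3 or C57BL/6J replicate 3 (adjusted p 0.0968, 0.0981, 0.136 and 0.0696). Clca3a1 of the airway gave -0.55, and lost its call without A/J replicate 2 (adjusted p = 0.0555).

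In vessels and matrix, Calcrl, the receptor of adrenomedullin, was 7.92, 7.58 and 7.54 in A/J and 6.51, 6.79 and 7.04 in C57BL/6J (1.87-fold, adjusted p = 0.0129). With Vwf, 2 of 26 endothelial genes thus passed in opposite directions (7.69%, beside 2.89% of all probe sets). Mgp, matrix Gla protein, an inhibitor of calcification, was 12.22, 12.38 and 12.29 against 13.64, 13.08 and 13.26 (2.04-fold, adjusted p = 0.00414). Mgp was the 1 gene of 31 fibroblast and matrix genes to pass (3.23%, near the share of all probe sets). Myl9, a myosin light chain of smooth muscle, gave -0.55 (adjusted p = 0.026), which was not held without A/J replicate 1, 2 or 3 or C57BL/6J replicate 2 (adjusted p 0.109, 0.0651, 0.104 and 0.0809).

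Immediate early genes, which respond to stimuli and to handling within minutes, were higher in A/J where they passed. They were 4 of 32 (12.5%, beside 1.23% of all probe sets called in this direction), and 26 of the 32 had the A/J mean above. Ier3 was 12.31, 12.04 and 11.81 in A/J and 11.29, 10.97 and 11.12 in C57BL/6J (1.90-fold, adjusted p = 0.00703). Ptgs2, inducible cyclooxygenase, gave 0.68, and the matricellular genes Ccn1 and Ccn2 gave 0.57 and 0.60. Fos gave 0.61 and Dusp1 0.59 without passing. The count was 1 without C57BL/6J replicate 2, 2 without A/J replicate 3 or C57BL/6J replicate 3, and Ier3 kept its call in each. Without the arrays high in Krt4 limma called 0 (7 at an unadjusted p below 0.05). Hspa8, a constitutive heat shock protein, was higher in A/J (0.53) and Hspb8, a small one, lower (-0.63). Per2, of the circadian clock, was 7.13, 6.90 and 6.97 against 6.55, 6.30 and 6.50 (0.55, adjusted p = 0.0133). It lost that call without A/J replicate 1 or 3 (adjusted p 0.057 and 0.0506).

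Of 16 genes on the list of known alleles 6 passed (37.5%, beside 2.89% of all probe sets). The list holds genes with known alleles in A/J or C57BL/6J and was chosen with earlier results of these data known, so its share is no test. Alad, the second enzyme of haem synthesis, was 11.08, 11.08 and 10.89 in A/J and 10.30, 10.13 and 10.08 in C57BL/6J (1.80-fold, adjusted p = 0.00108). Hc, complement C5, which A/J is known to lack as a protein, was 11.07, 11.00 and 10.92 against 12.01, 11.46 and 11.77 (1.68-fold, adjusted p = 0.0146). It lost its call without A/J replicate 2 or 3 or C57BL/6J replicate 3 (adjusted p 0.0606, 0.0665 and 0.0569). In liver at time 1 the Hc difference was -2.35. Ahr, the aryl hydrocarbon receptor, gave 0.52 and, with Glo1, Gbp2b and Ifi202b, completes the list. The count was 3 without A/J replicate 2 or C57BL/6J replicate 3, and Glo1, Gbp2b and Alad kept their calls in each fit that left out 1 array. Clu, clusterin, was 10.36, 10.37 and 10.39 against 11.17, 10.97 and 11.07 (1.62-fold, adjusted p = 0.00103), and with Hc and Serping1 (-0.33) made up 3 of 20 complement genes called, all lower in A/J. That count, 15% of the list beside 1.66% of all probe sets, was 1 without A/J replicate 2 or 3 or C57BL/6J replicate 3 and 0 by limma without the arrays high in Krt4 (4 at an unadjusted p below 0.05). Serping1 lost its call in each fit that left out 1 array (adjusted p from 0.0554 to 0.162). Hbb-b2, a beta globin, was higher in A/J (0.63, adjusted p = 0.0104).

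Chemokines moved in both directions. Of 36 measured chemokine genes and receptors 3 were higher in A/J and 2, Cxcl14 and Ccl5, lower (beside 1.23% and 1.66% of all probe sets). Cxcl5, which draws neutrophils and is made by alveolar epithelium, was 7.26, 7.22 and 7.17 in A/J and 6.51, 6.73 and 6.56 in C57BL/6J (1.53-fold, adjusted p = 0.0034). Ackr2, a decoy receptor that clears chemokines (0.56), and Cxcl1, another neutrophil chemokine (0.33), lay higher in A/J too. Cxcl1 lost its call in each fit that left out 1 array (adjusted p from 0.0537 to 0.141). Its other probe set gave 0.17 and was not called. The count of 5 was 3 without A/J replicate 1 or 2 or C57BL/6J replicate 3, and Cxcl5, Cxcl14 and Ccl5 kept their calls in each. At time 2 Cxcl5 gave -0.18.

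Other lists held few calls. Pttg1, securin of the cell cycle, was 10.74, 10.88 and 10.86 in A/J and 11.72, 11.74 and 11.64 in C57BL/6J (1.83-fold, adjusted p = 0.000286), and its other probe set gave -0.43 and was called. With Ccnd2, a G1 cyclin (-0.74), it made up the 2 of 47 cell cycle genes that passed (4.26%). Of 57 genes of oxidative phosphorylation 2 passed (3.51%), Atp5e of the ATP synthase (-0.61) and Ndufa3 of complex I (-0.44). Both shares are near the 2.89% of all probe sets. Ndufa3 lost its call without A/J replicate 1, 2 or 3 or C57BL/6J replicate 3 (adjusted p 0.115, 0.0795, 0.0927 and 0.0952). Hsd11b1, which reactivates glucocorticoids, gave 0.35 (adjusted p = 0.045), the 1 call among 19 metallothionein and glucocorticoid genes (5.26%). It was lost without A/J replicate 1, 2 or 3 and without C57BL/6J replicate 1 or 3 (adjusted p 0.172, 0.108, 0.121, 0.0619 and 0.139). None of 28 lipid genes, 7 ciliated cell genes or 6 mesothelial genes was called by limma, with 2, 1 and 3 at an unadjusted p below 0.05.

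The same contrast in the 6 lung arrays of time 2 showed which differences recurred in other samples. There 442 probe sets were called (3.56%), 280 with the higher level in A/J (2.25%) and 162 in C57BL/6J (1.3%). Of the 359 calls of time 1, 304 had the same sign at time 2, beside 50.2% of all probe sets, and 129 were called again in the same direction. No call of time 1 was reversed among the calls of time 2. The list medians at time 1 and time 2 were -0.18 and -0.03 for NK and cytotoxic genes and -0.20 and 0.07 for MHC class I genes. They were -0.17 and 0.06 for interferon-responsive genes, 0.09 and -0.09 for immediate early genes, and -0.41 and -0.23 for platelet genes. Over all probe sets the medians were 0.0089 and -0.0449. By the probe sets that the lists read, no NK or class I gene was called by limma at time 2. However, the probe set of H2-D1 outside the class I list that was called higher in A/J at time 1 (1.42) was called again. Its limma difference at time 2 was 2.0975 (adjusted p = 4.36e-06). Gas5 (-3.12 and -2.80), Ifi204 (2.80 and 2.55), Baiap2l1 (1.85 and 1.86), Glo1 (1.61 and 1.97), Snhg6 (-1.37 and -1.38), Sox11 (-1.21 and -1.27), and Chil3 (-1.59 and -1.63) were called at both times. So were Ctsc, with -2.09 and -2.97, and Prdx2, with -1.20 and -1.17. However, another probe set of each was called in the opposite direction at time 2 (0.82, adjusted p = 0.0287 for Ctsc and 0.51, adjusted p = 0.0349 for Prdx2). The remaining probe set of Ctsc gave -0.56 at time 2 (adjusted p = 0.0196). Igha (1.43, adjusted p = 0.000607) and Ighm (1.14, adjusted p = 0.00616) were called again, whereas Jchain (0.52, adjusted p = 0.0782) was not. The differences between times in Igha and Ighm did not pass the strain by time test (adjusted p 0.138 and 0.0759).

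The strain by time test, over the 12 lung arrays, called 22 probe sets (0.177%), 13 with a shift above 0 from time 1 to time 2 (0.105%) and 9 below (0.0725%). H2-Ab1 was among them: the strain difference was -1.25 at time 1 and 0.11 at time 2, a shift of 1.36 (SE 0.20, adjusted p = 0.0147). At time 2 the means were 11.52 ± 0.26 in A/J and 11.42 ± 0.09 in C57BL/6J (SD, n = 3), between those of time 1. No other class II gene of the list passed that test. Npr3, the clearance receptor of natriuretic peptides, had 0.85 at time 1 and -0.36 at time 2. Lox, lysyl oxidase, which crosslinks collagen and elastin, had 0.84 and -0.43, and F3, tissue factor, 0.55 and -0.21. Each of these 3 had non-overlapping strains at time 1, as had every probe set called there. Lox was 10.02, 9.99 and 9.78 in A/J and 9.07, 9.20 and 9.01 in C57BL/6J. Another probe set of Lox gave 0.02 at time 1 and 0.05 at time 2, so 1 probe set read both the difference and its shift. The other probe sets of Npr3 shifted by -0.83 and -0.45 and did not pass (adjusted p 0.157 and 0.123).

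Other members of the 22 differed between strains at time 2 and gave no call at time 1. Cxcr4, the receptor of Cxcl12, had -0.10 at time 1 and 1.13 at time 2, Mtss2 0.17 and 1.11, Mest, an imprinted gene, 0.01 and 0.63, and Meox2, a homeobox gene of vessels and mesenchyme, -0.33 and 0.60. Klra3 (-0.53 and 0.17) and Per2 (0.55 and -0.14) also passed (adjusted p 0.0225 and 0.0353). Gnb1 passed by 1 probe set (1.65 and 0.54, adjusted p = 0.0198), while its others gave 1.47 and 1.43, and 0.65 and 0.77, and did not pass (adjusted p 0.894 and 0.734). The times differ in array run, so time and run cannot be told apart, while both strains share the run of each time. The count of 22 was 4 without A/J replicate 1 of time 1 and 12 without replicate 3. It was 40 without A/J replicate 2 and 54 without C57BL/6J replicate 2 of time 1, and 91 without A/J replicate 3 and 40 without C57BL/6J replicate 1 of time 2. Without A/J replicate 1 of time 1 Npr3 and Mtss2 alone of the 11 named here were called (the others had adjusted p from 0.0618).

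**Figure D4:**
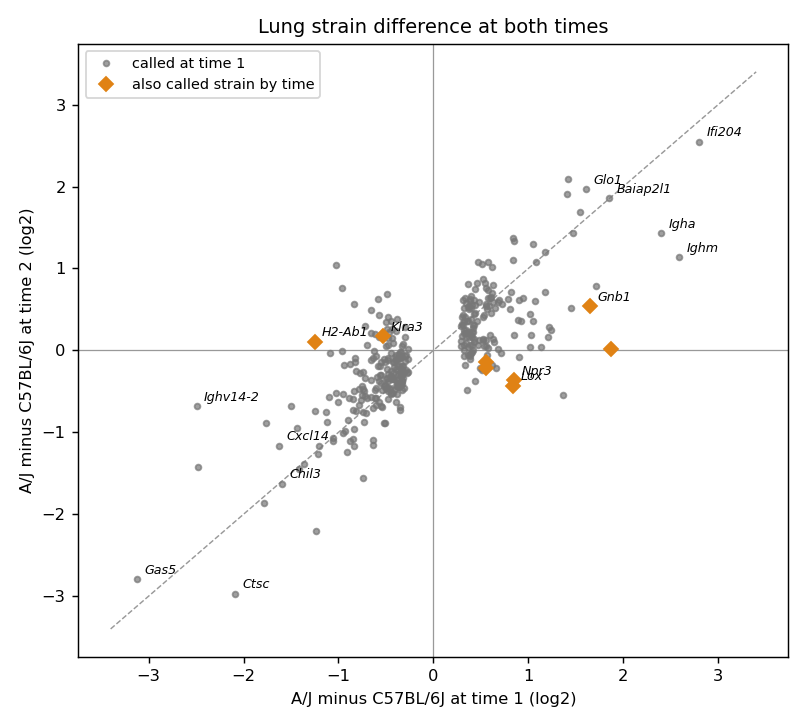
Strain difference (A/J minus C57BL/6J, log2) of the 359 probe sets called at time 1, with time 1 on the horizontal and time 2 on the vertical axis. Points near the dashed line of equality have like differences at both times, such as Gas5, Glo1 and Baiap2l1, and the 8 diamonds mark those also called in the strain by time test, such as H2-Ab1 and Lox.

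A further test asked where the strain difference in lung departed from its mean over liver, heart and spleen at time 1, and called 225 probe sets (1.81%), 117 above 0 (0.942%) and 108 below (0.869%). Of the calls in lung at time 1, 58 of the 153 higher in A/J and 56 of the 206 higher in C57BL/6J were among them. The sign was the same in liver, heart and spleen for 56 of the 153 and 118 of the 206, beside 18.2% of all probe sets, and 31 of these also passed the tissue test. Gas5 was -2.52 in liver, -2.68 in heart and -3.43 in spleen, Glo1 1.42, 1.61 and 1.69, and Snhg6 -1.15, -1.70 and -1.51, and none of the 3 passed the test of a difference between lung and the others.

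Ifi204 had the smallest p of that test: its strain difference was 2.80 in lung and -0.41, 0.01 and -0.61 in liver, heart and spleen, a departure of 3.14 (SE 0.14, adjusted p = 2.69e-12). In C57BL/6J lung its mean of 8.14 lay below the 8.46 to 9.27 of the other C57BL/6J tissues. Cxcl14 departed by -1.65 (adjusted p = 2.05e-07), with differences from -0.08 to 0.15 elsewhere. Slc15a2, a peptide transporter of airway epithelium, was 6.97, 7.11 and 7.05 in A/J lung and 8.25, 7.98 and 8.05 in C57BL/6J lung. The A/J lungs were thus level with the other tissues, whose means lay between 6.74 and 7.05, and the departure was -1.04 (adjusted p = 3.61e-07). Scel (1.69), Sox11 (-1.27) and Ighm (2.24) departed likewise, and Ighm had 0.93 in spleen. Scel had group means of 5.04 to 5.11 in liver, heart and spleen, near the lowest signal of the lung arrays (4.53). A strain difference of Scel could hardly be read there, so its departure does not show that the difference is particular to lung.

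Acvrl1, a receptor of bone morphogenetic proteins in endothelium, was 11.88, 11.66 and 11.79 in A/J lung and 10.41, 11.01 and 10.50 in C57BL/6J lung, and departed by 1.16 (adjusted p = 1.84e-05). Its other probe sets gave -0.23 and -0.25 in lung and were not called, so 1 of 3 read the difference. Mgp (-1.09), Acsl4, an acyl-CoA synthetase for arachidonate (0.79), and Chil3 (-1.39) completed the 10 with the smallest p. Acsl4 was 7.20, 6.86 and 6.96 against 6.22, 6.32 and 6.36 in lung, and its other probe set gave 0.53 (adjusted p = 0.149). These 10 kept their calls in each alternative that could be computed for them. The count of 225 was 124 without A/J lung replicate 3 and 149 without C57BL/6J lung replicate 1.

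**Figure D5:**
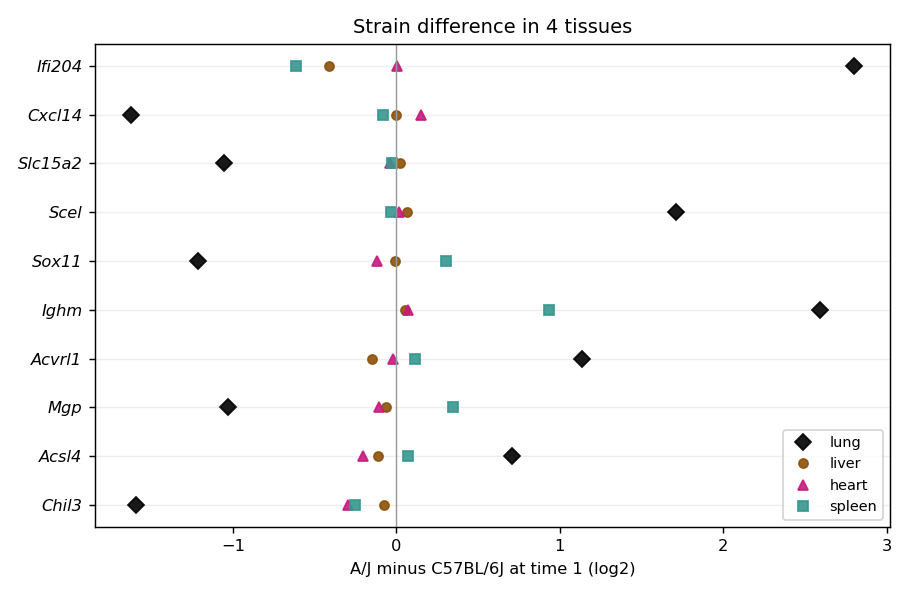
Strain difference (A/J minus C57BL/6J, log2, horizontal axis) at time 1 in lung, liver, heart and spleen for the 10 genes with the smallest p in the strain by tissue test. The lung diamonds stand away from 0, from -1.62 for Cxcl14 to 2.80 for Ifi204, and in liver and heart no difference exceeds 0.41 in size.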

How the data were processed

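Expression was measured on Affymetrix MG-U74Av2 arrays. The values used are the log2 signals the authors deposited, 1 per probe set and array; their summary and normalization method is not given in the sources. Of 12488 probe sets 66 controls were left out, and 12422 were tested. Strains were compared with limma 3.58.1 in R 4.3.3 (lmFit and eBayes), two-sided, and p-values were adjusted by Benjamini-Hochberg across the 12422. A probe set with an adjusted p below 0.05 is called. Fits used the 6 arrays of the time compared, the 12 lung arrays for strain by time, or the 24 arrays of time 1 for strain by tissue. Liver-enriched probe sets had each liver mean at least 2 log2 units above each heart and time 2 lung mean.

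Genes were named from probe sets with 1 symbol (10833; 396 had several and 1193 none): the 14 largest non-overlapping called differences per direction, up to 6 liver-enriched calls and Alb, up to 5 members per list by smallest p, and 8 and 10 genes by smallest p for strain by time and by tissue. The comparison and gene lists were chosen with earlier results of these data known. Replicate numbers were not taken to pair the strains: same-numbered arrays had deviations correlated at -0.04, -0.13 and 0.22 at time 1 and at 0.36, 0.10 and 0.04 at time 2. Alternatives changed the normalization, filter, spread, covariates and arrays, and leaving out the arrays high in Krt4 or Acta1 was chosen after seeing the data. The scripts were tested on simulated data.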

Additional observations from a re-analysis of the deposited data

Results flagged for a closer look

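Strain differences that changed between times were tested by limma's strain by time term (time 2 minus time 1 of A/J minus C57BL/6J). The shift was -1.21 for Npr3, -1.27 for Lox, -0.77 for F3, -1.11 for Gnb1 and -0.69 for Per2. It was 1.23 for Cxcr4, 0.93 for Meox2, 0.94 for Mtss2, 1.36 for H2-Ab1, 0.62 for Mest and 0.70 for Klra3. Other probe sets of Gnb1 shifted by -0.04 and 0.12, and another of Lox by 0.03. Of these 11, Npr3 kept its call in each of 18 alternatives. The times also differ in array run.

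Departures of the lung strain difference from its mean over liver, heart and spleen at time 1 were tested by limma's contrast. Whether a gene gave enough signal in the other tissues for a strain difference to show was not tested. Scel had means of 5.04 to 5.11 there, and Ighm was also higher in A/J spleen (0.93). The departure was 3.14 for Ifi204, 1.69 for Scel, 2.24 for Ighm, 1.16 for Acvrl1 and 0.79 for Acsl4. It was -1.65 for Cxcl14, -1.04 for Slc15a2, -1.27 for Sox11, -1.09 for Mgp and -1.39 for Chil3. All 10 kept their calls in each alternative that included them.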

How the results depend on the processing

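The 359 calls of time 1 became 201 among probe sets above the median mean only, 218 with the hepatocyte mean as covariate, 43 without the arrays high in Krt4 (1 A/J array left, assumed to vary like C57BL/6J) and 139 without those high in Acta1, and 167 to 394 when 1 array was left out. The 442 of time 2 became 1773 with the spread of all 48 arrays and 1270 with that of the 12 lung arrays, and 190 to 780 leaving out 1 array. The 22 of strain by time became 13 above the median mean and 274 with the spread of 48 arrays, and 4 to 91 leaving out 1. The 225 of strain by tissue became 135 above the median mean, and 124 to 274 leaving out 1. The 8 liver-enriched calls became 1 above the median mean, 20 with the spread of 48 arrays, 0 by limma without the arrays high in Krt4 (19 at an unadjusted p below 0.05), 1 without those high in Acta1 and 13 with the limit at 1 log2 unit, and 3 to 12 leaving out 1.

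With the replicate number as a block the counts were 253 at time 1, 887 at time 2, 25 for strain by time, 178 for strain by tissue and 5 for liver-enriched probe sets; not every array correlated best with its own number. With the hepatocyte covariate 52.8% of the calls had the higher level in A/J, beside 42.6% of the 359. The cause of these changes was not tested, except that several fits had fewer arrays or probe sets. Signals near the ceiling or the lowest level of the arrays, and 3 animals per group, limit what can be read.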

Other observations

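Antibody probe sets were read as a group chosen after their values were seen, so no test is given. Of 64 probe sets with an immunoglobulin symbol, 53 had the A/J mean above. Their median was 0.15 at time 1 and -0.02 at time 2, beside 0.0089 and -0.0449 over all probe sets. Of the 64, 8 were called higher in A/J and 2 lower. The share called was 15.6%, beside 2.89% of all probe sets (1.23% higher in A/J and 1.66% lower). Beside Ighm and Igha, the light chain variable segments Igkv6-14 (1.01), Igkv6-23 (0.90) and Igkv4-68 (0.41), the heavy chain segment Ighv5-12 (0.38) and Ighg3 (1.05), the constant part of IgG3, were higher in A/J. They are not among the 88 genes named by the rule. Such probe sets can read several related segments.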
